A study of Homo sapiens with 12 samples.

Results

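The 10 genes described here encode the transcription factors that carry the integrated stress response (ISR) and the proteins that feed back on it. They were chosen by name and not by a threshold on a measured value, but with earlier results of these data known. These are ATF4 and its basic leucine zipper partners and relatives CEBPG, CEBPB, ATF3, ATF5, DDIT3 and CREB3L4. The small chromatin-associated co-regulator NUPR1 and the feedback proteins TRIB3 and PPP1R15A complete the 10. All 10 were found among the 55242 genes left after rRNA genes were removed, and all 10 passed the filter on low counts in every comparison, which asked for a mean of 10 or more normalized counts in at least 1 of the groups compared.

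In the ISR, kinases that sense amino acid shortage, unfolded protein in the endoplasmic reticulum (ER), double-stranded RNA or haem deficiency phosphorylate the translation initiation factor eIF2. Bulk translation then falls while ATF4 mRNA is translated better, and ATF4, usually as a heterodimer with a C/EBP protein, activates genes of amino acid transport, amino acid synthesis and tRNA charging. ATF4 also induces DDIT3 (CHOP), ATF3, TRIB3 and PPP1R15A (GADD34); TRIB3 binds and restrains ATF4, and PPP1R15A brings a phosphatase to eIF2 and so restores translation.

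RNA was sequenced from Hs 578T, a triple-negative breast cancer line of the mesenchymal stem-like subtype. The cells had been transduced with a lentiviral vector for GFP (GFP cells, the control) or for exogenous full-length NRF2 (NRF2 cells), the transcription factor of the oxidative stress response, and were kept for 8 h in a cystine-free medium to which 0.8 mM cystine (Cyss) had been added back (with Cyss) or not (w/o Cyss). Each of the 4 groups (GFP with Cyss, GFP w/o Cyss, NRF2 with Cyss, NRF2 w/o Cyss) had 3 libraries. All groups shared the line, the transduction, 10% serum, 0.2 mM methionine and 2 mM glutamine, and in the NRF2 cells the cDNA added to the endogenous NRF2 gene; no source says that the 3 libraries of a group came from separate transductions or cultures, so the p-values measure the spread between these libraries, which may be technical.

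The libraries held 27250993 to 44596870 reads on genes. NFE2L2 encodes NRF2, and its reads here include the cDNA. It lay at 3647 to 4655 normalized counts in the GFP libraries and at 6598 to 8397 in the NRF2 libraries. Every library thus matched the GFP or NRF2 part of its label, and these ranges do not check the Cyss part. Mesenchymal markers (6 of 6 present, 978483 to 1098310 normalized counts summed) far exceeded epithelial ones, of which 2 of 7, KRT8 and KRT18, had a mean of at least 10 normalized counts over the 12 libraries; CDH1 reached 10.8 in GFP cells w/o Cyss and 4.48 to 7.11 in the other groups. The summed epithelial markers ran from 934.8 to 1240.2 in the libraries with Cyss and from 1325 to 1677 in those w/o Cyss. KRT18 held most of this sum, with a log2FC (w/o against with Cyss) of 0.39 in GFP and 0.66 in NRF2 cells. KRT8, at 0.13 and 0.28, was not called. The sum thus moved with Cyss as many of the 10 genes did, and the part of this in the results was not tested. On the first principal component (26.3% of the variance), GFP w/o Cyss replicate 3 lay at -2.40, apart from the other libraries of its group at 10.5 and 13.2. NRF2 w/o Cyss replicate 1 had the largest share of reads outside genes, 7.84%, against 5.82 to 6.69% in the other 11. Calls of the 10 genes that were lost or gained without either library are named beside the result.

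The ATF4 complex is known to bind composite C/EBP-ATF elements (CARE), and CREB and ATF dimers bind the cAMP response element (CRE). In RefSeq promoter windows (250 bases before to 50 after a start site, build GRCh38.p14, present for 9 of the 10 genes in 18 windows), a search of both strands for TTNCATCA, the core of the CARE, found it in a window of ATF3 and in a window of CEBPG. The palindrome TGACGTCA of the CRE was found in the window of PPP1R15A, before the start site of that window. No window was held for NUPR1. These 3 stretches are shown because they are the places where the letters of either element lie in the windows; capitals mark the match, and the CARE core reads here on the opposite strand. Each sequence was located in GRCh37, the build of the counts, with the gene on the plus strand; the match of PPP1R15A lies in an exon of that gene in GENCODE 44, and the other two lie in no annotated exon.

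ATF3, chr1:212738547-212738576: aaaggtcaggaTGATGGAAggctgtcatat

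CEBPG, chr19:33864966-33864995: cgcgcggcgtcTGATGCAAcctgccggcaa

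PPP1R15A, chr19:49375609-49375638: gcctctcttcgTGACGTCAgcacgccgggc

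The matches began 191, 42 and 58 bases before the start site of their windows. TTNCATCA occurred in 4.46% and TGACGTCA in 2.25% of all 27305 genes with a window, so a match is a description of these letters and not evidence of a bound site. The antioxidant response element pattern TGACNNNGC, which overlaps neither of the other matches, was in a window of 4 of the 9 genes (CEBPB, TRIB3, PPP1R15A and CREB3L4) and in 16.1% of all genes.

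On GRCh37, ATF3 lies at chr1:212738676-212794119, ATF5 at chr19:50431959-50437192, CEBPB at chr20:48807367-48809205, CEBPG at chr19:33864591-33873592, TRIB3 at chr20:343479-378203 and PPP1R15A at chr19:49375469-49379316, all on the plus strand, and NUPR1 at chr16:28544029-28550329 on the minus strand; the places of the other 3 are given with their values.

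The 10 transcripts differed widely in abundance. Per length (RPKM, computed here from the merged exons of GENCODE 44 on GRCh37 and TMM-scaled depth), ATF4 was the most abundant in every group, with an RPKM of 84.9 ± 2.41 (SD, n = 3) in GFP cells with Cyss. PPP1R15A followed at 31.2 ± 1.05. CEBPG at 17.5 ± 0.479, ATF5 at 17.3 ± 0.659 and CEBPB at 16.7 ± 0.557 came next, and the ranges of neighbours in this order overlapped. DDIT3 was at 13.2 ± 1.21, NUPR1 at 5.99 ± 0.306 and TRIB3 at 5.52 ± 0.0727, each with a range apart from its neighbours. CREB3L4 (0.929 ± 0.0910) and ATF3 (0.688 ± 0.121) were the lowest and also did not overlap. The level of NUPR1 rests on 5508 bases of merged exon, which include long alternative exons, and is lower per length than it would be on a short transcript alone.

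**Figure D1:**
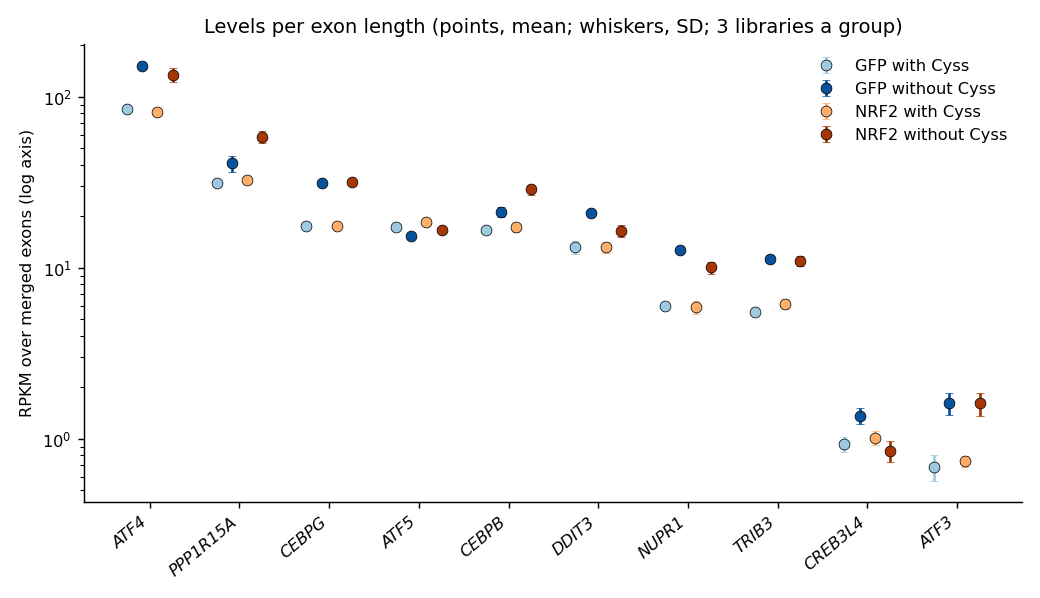
Level of each gene in RPKM over merged exons on a log axis, by group, with genes ordered by their level in GFP cells with Cyss; points are means and whiskers SDs of 3 libraries. ATF4 lies highest, from 81.9 to 152, and CREB3L4 and ATF3 lowest, from 0.688 to 1.61.

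W/o Cyss the order changed in its middle and at its end. In GFP cells w/o Cyss, ATF5 stood behind DDIT3 (an RPKM of 15.4 ± 0.336 against 21.0 ± 0.765, ranges apart), and ATF3 reached 1.61 ± 0.233 and overlapped CREB3L4 at 1.36 ± 0.142. In NRF2 cells w/o Cyss, CEBPB (28.8 ± 1.89) stood above ATF5 (16.6 ± 0.148), which overlapped DDIT3 (16.5 ± 1.25). CREB3L4 was then the lowest of the 10 at 0.851 ± 0.123, below ATF3 at 1.61 ± 0.244 with ranges apart.

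To ask how the stress response genes answered the lack of Cyss, GFP cells w/o Cyss were compared with GFP cells with Cyss. Of the 10 genes, 9 were upregulated (adjusted p under 0.1 and log2FC above 0.32), against 1.57% of the 17452 genes tested, and the median log2FC of the 10 was 0.75 against 0.00 over all genes. The 10 were chosen with earlier results of these data known, so their share called is not independent of these data. The count fell to 7 without GFP w/o Cyss replicate 3. In bulk RNA, a change in the share of cells that express a gene and a change in the RNA per cell cannot be told apart. Here and in the comparisons below, whether groups overlapped is given as a description only. The share of all genes with groups apart was not counted. None was called downregulated by edgeR or by DESeq2, against 0.533% of all genes, and 1, ATF5, was lower at an unadjusted p under 0.05. Over all genes, 3160 of the 17452 had an unadjusted p under 0.05 in either direction (edgeR).

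**Figure D2:**
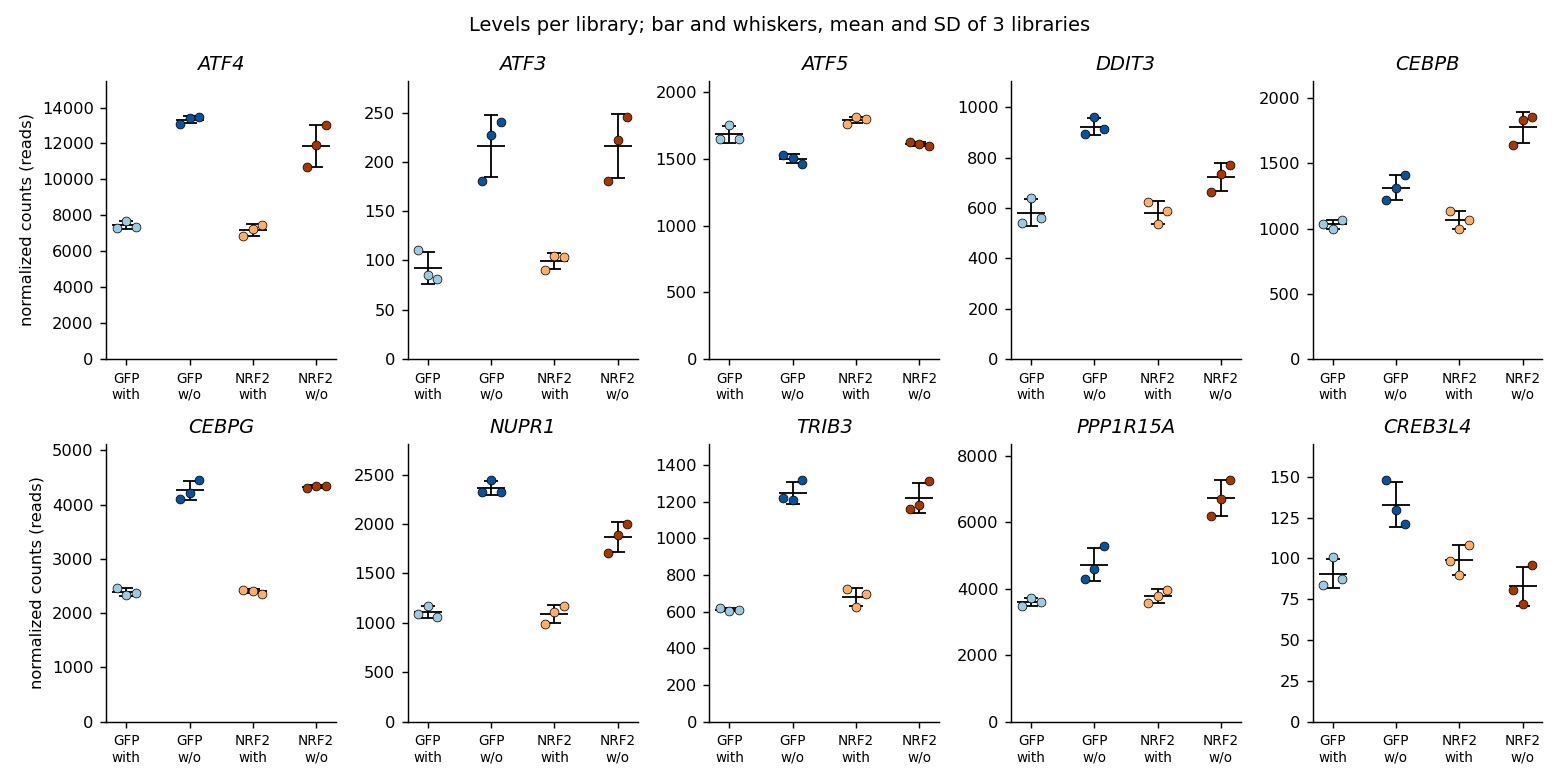
TMM-normalized counts of the 10 genes in each of the 12 libraries, by group, on linear axes from 0; points are libraries, bars means and whiskers SDs of 3 libraries. ATF4 lies between 6840 and 7695 with Cyss and between 10667 and 13458 w/o Cyss, and CREB3L4 reaches 121 to 148 in GFP cells w/o Cyss and at most 109 elsewhere.

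In GFP cells, ATF4 had 7312, 7695 and 7346 normalized counts (replicates 1, 2 and 3, the order kept below) when Cyss was present and 13104, 13439.8 and 13458 when it was not. The groups lay well apart, and every library w/o Cyss was above every library with Cyss. The log2FC was 0.84 ± 0.0357 (SE), a 1.79-fold rise (edgeR's quasi-likelihood test, adjusted p = 1.04e-08). ATF4 lies at chr22:39915700-39918688 (plus strand, GRCh37), and 2 of its processed pseudogenes also took reads, ATF4P4 from 408 to 856 and ATF4P3 from 140 to 350 per library, so a part of its reads may be counted elsewhere.

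CEBPG, a C/EBP protein without a transactivation domain and a heterodimer partner of ATF4, moved almost as far. It had 2461, 2332 and 2377 normalized counts with Cyss and 4108, 4220.2 and 4453 w/o Cyss. The groups did not overlap, and the log2FC of 0.83 ± 0.0433 corresponded to a 1.78-fold rise (edgeR, adjusted p = 6.09e-08). CEBPB, a C/EBP activator that also dimerizes with ATF4 and DDIT3, rose less: 1035, 999 and 1067 with Cyss against 1221, 1310.2 and 1412 w/o Cyss. These groups too stayed apart, with a log2FC of 0.35 ± 0.0577 (edgeR, adjusted p = 0.00432), close to the fold threshold. CEBPB was not called without GFP w/o Cyss replicate 3 (log2FC 0.29) or without GFP with Cyss replicate 2.

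ATF3, a homodimerizing repressor and early stress gene, had the largest log2FC of the 10 in GFP cells and one of the lowest levels. It counted 111, 85.0 and 81.3 normalized reads with Cyss and 181, 228 and 241 w/o Cyss. All libraries w/o Cyss lay above all libraries with Cyss, and the log2FC was 1.22 ± 0.139 (edgeR, adjusted p = 1.57e-04), a 2.34-fold rise that placed ATF3 25th of 17452 genes. DDIT3, the factor tied to stress-induced cell death, had 540.5, 641 and 561 normalized counts with Cyss and 894, 960 and 913 w/o Cyss, with no overlap (log2FC 0.66 ± 0.0668, edgeR adjusted p = 5.04e-05). Exons of DDIT3 (chr12:57910371-57915520, minus strand) share 355 bases with MARS, the gene of the cytosolic methionyl-tRNA synthetase on the opposite strand. MARS itself rose with a log2FC of 0.78 and was named here for its place after its values were seen. Counting ignored strand and set reads of more than 1 annotated gene aside as ambiguous, 3.16 to 3.38% per library. The annotation used for counting is not known, and the part of shared reads was not tested.

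NUPR1, a small stress-induced protein of chromatin, had 1089.8, 1172 and 1064 normalized counts with Cyss and 2324, 2445 and 2322 w/o Cyss. Its groups were far apart, with a log2FC of 1.09 ± 0.0489, a 2.13-fold rise (edgeR, adjusted p = 1.83e-08). ATF5, like ATF4 an mRNA whose translation rises in the ISR, went the other way: 1645, 1757 and 1648 normalized counts with Cyss against 1529, 1509 and 1465 w/o Cyss. Its groups did not overlap either, but its log2FC of -0.17 ± 0.0455 (edgeR, adjusted p = 0.0682) lay inside the fold threshold, so it was not called. Exons of ATF5 share 565 bases, 19.5% of its exon bases, with NUP62 on the opposite strand, whose log2FC was -0.06 here and which was named for its place after its values were seen; the part of shared reads was not tested.

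The feedback genes split in size. TRIB3, the pseudokinase that restrains ATF4, rose from 620, 605 and 607 normalized counts to 1217, 1209 and 1318, with no overlap and a log2FC of 1.03 ± 0.0534 (edgeR, adjusted p = 6.09e-08). PPP1R15A, the regulatory subunit that directs a phosphatase to eIF2, had 3483, 3724 and 3589 with Cyss and 4296, 4597 and 5271 w/o Cyss. The highest of these values belonged to GFP w/o Cyss replicate 3; with it the log2FC was 0.39 ± 0.0617 (edgeR, adjusted p = 0.00283), and without it the log2FC was 0.30, no longer past the fold threshold.

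CREB3L4, an ER-membrane-bound factor of the CREB3 family, is rare in these cells. It had 83.8, 101 and 87.4 normalized counts with Cyss and 148, 129.9 and 121 w/o Cyss. The groups did not overlap, and the log2FC of 0.55 ± 0.120 was called (edgeR, adjusted p = 0.0241) with the second widest SE of the 10.

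The same question was asked of NRF2 cells. Upregulation was called for 7 of the 10, against 6.81% of the 17266 genes tested, and the median log2FC of the 10 was again 0.75. Over all genes 1176 were upregulated and 887 downregulated, and with scaling by library size only these counts became 936 and 1397. None of the 10 was downregulated by edgeR or DESeq2, against 5.14% of all genes, and 1, again ATF5, was lower at an unadjusted p under 0.05. Over all genes, 5887 of the 17266 had an unadjusted p under 0.05 in either direction (edgeR). The NRF2 and GFP comparisons share no library.

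**Figure D3:**
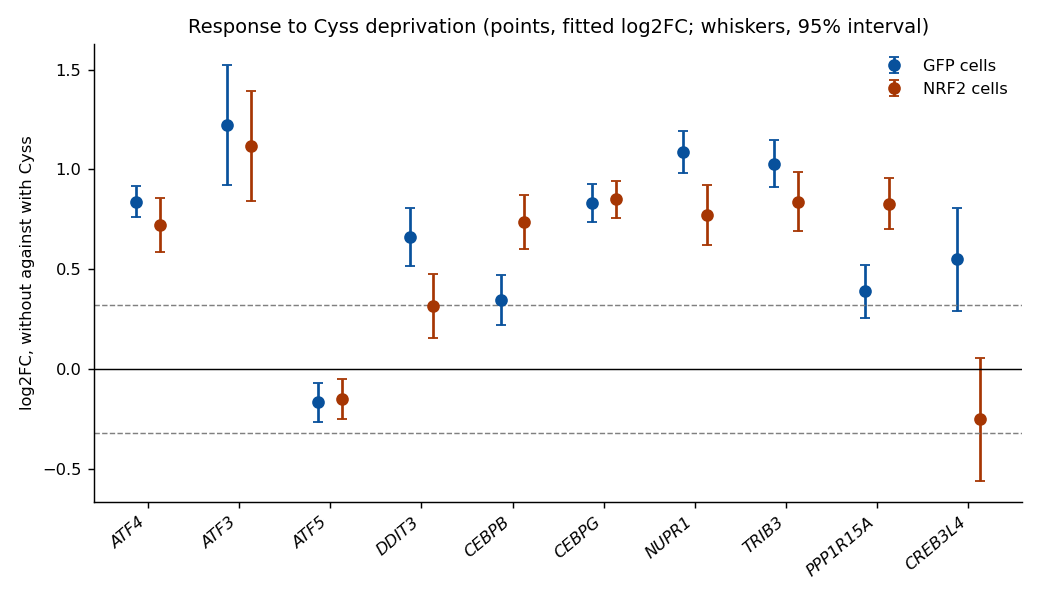
Fitted log2FC (without against with Cyss) of the 10 genes in GFP cells and in NRF2 cells; whiskers are 95% intervals of the fit, dashed lines the fold threshold of 0.32 in either direction. CREB3L4 stands at 0.55 in GFP cells and at -0.25 in NRF2 cells, and CEBPB and PPP1R15A stand higher in NRF2 cells, at 0.74 and 0.83.

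In NRF2 cells, ATF4 had 6840, 7230.4 and 7488 normalized counts in its presence and 10667, 11913 and 13022 in its absence. The groups were apart, with NRF2 w/o Cyss replicate 1 the lowest of its group (log2FC 0.72 ± 0.0624, edgeR adjusted p = 9.01e-07; 0.79 without that library). CEBPG had 2434, 2405 and 2362 with Cyss and 4305, 4345 and 4349 w/o Cyss, the tightest group w/o Cyss of the 10 genes. Its log2FC was 0.85 ± 0.0439 (edgeR, adjusted p = 5.28e-09).

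CEBPB had 1137, 996 and 1067 normalized counts with Cyss and 1642, 1833 and 1854 w/o Cyss. The groups were far apart, with a log2FC of 0.74 ± 0.0633 (edgeR, adjusted p = 8.53e-07), a 1.66-fold rise. ATF3 rose from 90.2, 105 and 103 to 181, 223 and 245, with a log2FC of 1.12 ± 0.129 (edgeR, adjusted p = 1.75e-05).

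DDIT3 had 623, 536 and 587 normalized counts with Cyss and 664, 735 and 772 w/o Cyss. The groups did not overlap, although the lowest library w/o Cyss and the highest with Cyss were near each other. Its log2FC of 0.32 ± 0.0749 passed the test (edgeR, adjusted p = 0.00729) and lay just under the fold threshold, so it was not called; it was called in 3 of the 6 fits with 1 library removed, those without NRF2 with Cyss replicate 1, NRF2 with Cyss replicate 3 or NRF2 w/o Cyss replicate 1 (log2FC up to 0.38). NUPR1 had 987, 1113 and 1171 with Cyss and 1704, 1889.8 and 2002 w/o Cyss, again apart, with a log2FC of 0.77 ± 0.0699 (edgeR, adjusted p = 1.46e-06).

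TRIB3 had 723, 626 and 694 normalized counts with Cyss and 1161, 1180.5 and 1311 w/o Cyss, with no overlap and a log2FC of 0.84 ± 0.0687 (edgeR, adjusted p = 5.40e-07). PPP1R15A rose from 3562, 3785 and 3972 to 6186, 6687 and 7267 (log2FC 0.83 ± 0.0592, edgeR adjusted p = 1.36e-07). Every NRF2 library w/o Cyss exceeded every other library in the study for this gene.

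ATF5 and CREB3L4 did not pass. ATF5 had 1762, 1812 and 1799 normalized counts with Cyss and 1628, 1611 and 1599 w/o Cyss, apart but with a log2FC of only -0.15 ± 0.0469 (edgeR, adjusted p = 0.0304), inside the fold threshold. CREB3L4 had 98.7, 89.8 and 109 with Cyss and 80.8, 72.2 and 95.9 w/o Cyss. These groups overlapped, and the log2FC of -0.25 ± 0.144 was not called (edgeR, adjusted p = 0.237). Without NRF2 w/o Cyss replicate 3 its log2FC was -0.37 and it was called downregulated.

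To see whether NRF2 set another level of these genes before any deprivation, NRF2 and GFP cells with Cyss were compared. No member was called in either direction by edgeR or by DESeq2, against 1.36% of 17449 genes upregulated and 0.201% downregulated, and 1 (TRIB3) was higher at an unadjusted p under 0.05. Over all genes, 3321 of the 17449 had an unadjusted p under 0.05 in either direction (edgeR). The log2FC of the 10 ran from -0.05 for ATF4 to 0.15 for TRIB3. The intervals bound what could have been missed: the 95% interval ran from -0.14 to 0.03 for ATF4, from -0.16 to 0.15 for DDIT3, from -0.08 to 0.09 for CEBPG and from -0.15 to 0.11 for NUPR1. For the rarer ATF3 and CREB3L4 it was wider, from -0.18 to 0.40 and from -0.14 to 0.38. It ran from -0.07 to 0.16 for CEBPB, from -0.03 to 0.16 for PPP1R15A and from -0.004 to 0.18 for ATF5. For TRIB3 it ran from 0.03 to 0.28 and so left out 0, without adjustment for the number of genes tested. ATF5 and TRIB3 were higher in every NRF2 library than in every GFP library. Neither was called (edgeR, adjusted p = 0.281 and 0.175). The share of all genes separated in this way was not counted, so the separation is not read as a result.

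Differences appeared w/o Cyss. In NRF2 against GFP cells w/o Cyss, 2 of the 10 genes were higher (against 5.98% of 17297 genes) and 3 were lower (against 4.09%). Over all genes 1034 were higher and 708 lower, and with scaling by library size only 876 and 1001. This comparison shares its libraries with both responses above. The 3 lower genes, CREB3L4, DDIT3 and NUPR1, had been named in the paper from these data. It reported them as raised by Cyss deprivation and lowered by NRF2 w/o Cyss.

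PPP1R15A was the gene most raised, at 6186 to 7267 normalized counts in NRF2 cells against 4296 to 5271 in GFP cells w/o Cyss. The groups did not overlap (log2FC 0.49 ± 0.0754, edgeR adjusted p = 0.00123). CEBPB stood at 1642 to 1854 against 1221 to 1412, also apart, with a log2FC of 0.42 ± 0.0662 (edgeR, adjusted p = 0.00147). Dropping any 1 of the 6 libraries kept both calls, with a log2FC of 0.37 to 0.48 for CEBPB and 0.43 to 0.58 for PPP1R15A.

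CREB3L4 was the gene most lowered, with 72.2 to 95.9 normalized counts in NRF2 cells against 121 to 148 in GFP cells w/o Cyss, a log2FC of -0.69 ± 0.138 (edgeR, adjusted p = 0.00517), and it was called in all 6 fits. DDIT3 stood at 664 to 772 against 894 to 960 (log2FC -0.36 ± 0.0666, edgeR adjusted p = 0.00344), and NUPR1 at 1704 to 2002 against 2322 to 2445 (log2FC -0.35 ± 0.0598, edgeR adjusted p = 0.00213). Neither pair of groups overlapped, but both calls rested on NRF2 w/o Cyss replicate 1, the lowest library of its group for either gene: without it the log2FC was -0.30 for DDIT3 and -0.29 for NUPR1, inside the fold threshold. ATF4 was lower in all NRF2 libraries than in all GFP libraries w/o Cyss, with a log2FC of -0.18 ± 0.0621 (edgeR, adjusted p = 0.0573) that did not pass the fold threshold and was -0.10 without NRF2 w/o Cyss replicate 1. This separation is not read as a result either. ATF3, CEBPG, TRIB3 and ATF5 had log2FC values from -0.05 to 0.09 and were not called.

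Whether the response to Cyss deprivation differed between NRF2 and GFP cells was tested directly, as the interaction in a fit of all 12 libraries (adjusted p under 0.1). Of the 10 genes, 2 had a positive interaction, against 8.97% of the 17674 genes tested, and 3 a negative one, against 6.13%. Over all genes the interaction was positive for 1585 and negative for 1084, and with scaling by library size only for 1124 and 1981. The 5 interactions of the 10 genes were called under each of the 3 scalings. The 3 negative ones are those of the genes that the paper had named, so their share is not independent of these data.

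**Figure D4:**
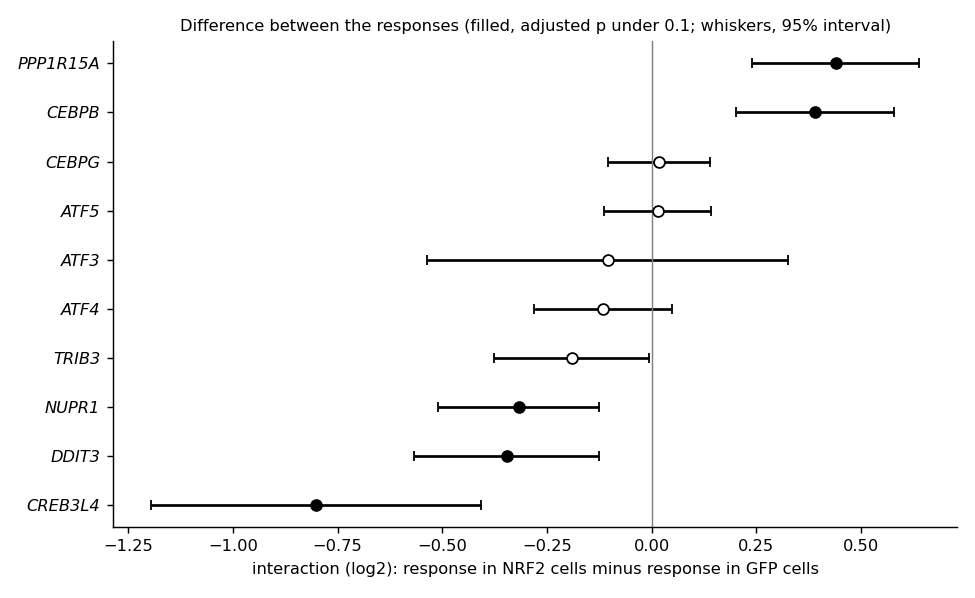
Interaction of the 10 genes, the log2FC in NRF2 cells minus that in GFP cells, with 95% intervals; filled points had an adjusted p under 0.1. PPP1R15A (0.44) and CEBPB (0.39) lie to the right of 0, and NUPR1 (-0.32), DDIT3 (-0.35) and CREB3L4 (-0.80) to the left.

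The positive interactions were those of PPP1R15A, 0.44 ± 0.0949 (edgeR, adjusted p = 0.00776), and CEBPB, 0.39 ± 0.0896 (edgeR, adjusted p = 0.0113). Both genes rose in both kinds of cell, and further in NRF2 cells. The largest negative interaction was that of CREB3L4, -0.80 ± 0.188 (edgeR, adjusted p = 0.0129), which rose in GFP cells and did not rise in NRF2 cells. These 3 genes were called in all 12 fits with 1 library removed. Exons of CREB3L4 (chr1:153940010-153946837, plus strand) share 93 bases with JTB and 280 with SLC39A1 on the opposite strand; JTB also had a negative interaction, -0.29, whereas SLC39A1 had -0.05 and was not called, and the part of shared reads in the result was not tested.

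DDIT3 had an interaction of -0.35 ± 0.105 (edgeR, adjusted p = 0.0467) and NUPR1 one of -0.32 ± 0.0913 (edgeR, adjusted p = 0.0368). Both genes went up less in NRF2 cells. These calls were less stable: DDIT3 was not called in 5 of these 12 fits, those without NRF2 with Cyss replicate 1 or 3, GFP with Cyss replicate 1 or 3, or GFP w/o Cyss replicate 2, and NUPR1 was not called in 2, without NRF2 with Cyss replicate 3 or GFP w/o Cyss replicate 2. Without NRF2 w/o Cyss replicate 1 the interactions were -0.29 and -0.26, and both were called.

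The other 5 did not pass. CEBPG (0.02, 95% interval -0.10 to 0.14) and ATF5 (0.01, -0.11 to 0.14) had the narrowest intervals. ATF4 had an interaction of -0.12 (-0.28 to 0.05) and TRIB3 of -0.19 (-0.38 to -0.01, edgeR adjusted p = 0.187), and each was called in 1 of the 12 fits, without NRF2 w/o Cyss replicate 3 (-0.19 for ATF4). Without NRF2 w/o Cyss replicate 1, the interaction of ATF4 was -0.05. ATF3 had -0.11 (0.01 without NRF2 w/o Cyss replicate 1) with an interval from -0.54 to 0.33, so that a sizeable difference in either direction was not detectable at its depth of 81.3 to 245 normalized counts.

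Most known targets of ATF4 were upregulated as ATF4 was. Of a list of 32, 28 of the 31 tested were upregulated in GFP cells (median log2FC 0.72, against 0.00 over all genes) and 30 of 32 in NRF2 cells (median 0.60, against -0.01). Over all genes 1.57% and 6.81% were upregulated. The list was chosen with earlier results of these data known. In GFP cells the largest rises were those of CHAC1, which degrades glutathione (4.28-fold, edgeR adjusted p = 1.21e-10), DDIT4, an inhibitor of mTORC1 (log2FC 1.99, 1.21e-10), and SESN2, a leucine sensor that also restrains mTORC1 (1.72, 7.86e-10). In NRF2 cells they were GDF15, a stress-induced cytokine (2.37, edgeR adjusted p = 0.0125, at a group mean of only 3.20 normalized counts with Cyss, and not tested in GFP cells for low counts), CHAC1 (1.81, 1.92e-10) and SESN2 (1.69, 1.25e-10). GDF15 passed the filter on low counts only through NRF2 cells w/o Cyss, at a mean of 16.0. Its call, which the 30 include, is therefore not read as a result. SLC7A11, the cystine importer and a target of NRF2 as well as of ATF4, did not follow: it averaged 5143 normalized counts with and 5020.0 w/o Cyss in GFP cells, and 8006 and 7907 in NRF2 cells.

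**Figure D5:**
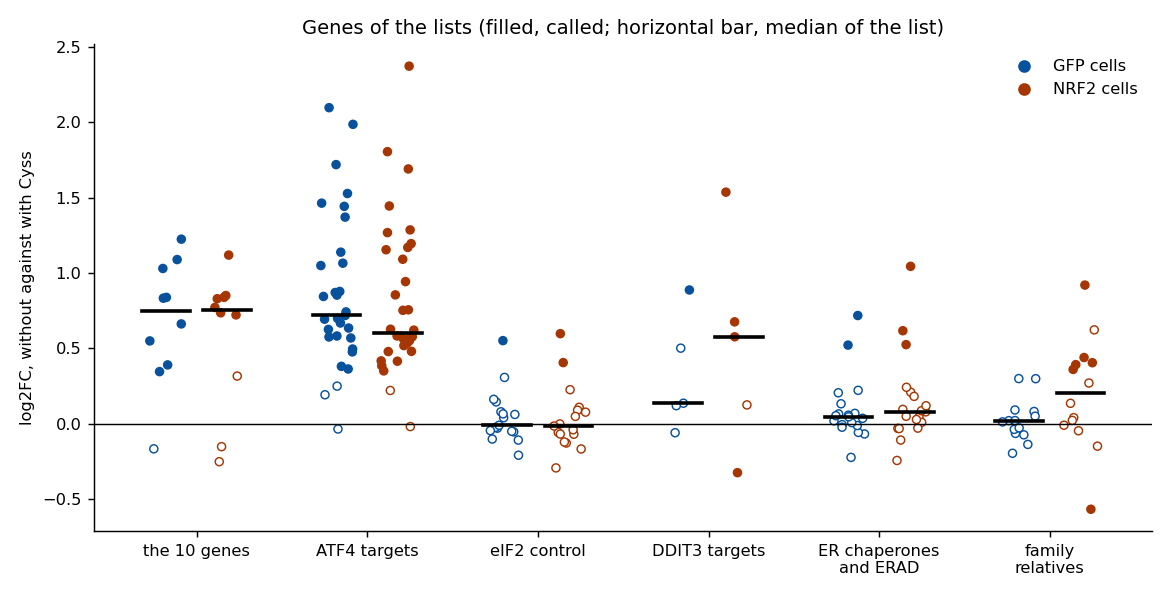
Fitted log2FC (without against with Cyss) of the 10 genes and of the genes of 5 lists in GFP cells and in NRF2 cells; each point is a gene, filled where called, and bars are medians. The ATF4 targets have medians of 0.72 and 0.60, and the genes of eIF2 control have medians of -0.01 and -0.02.

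Between NRF2 and GFP cells w/o Cyss, 4 of the 32 ATF4 targets were higher and 2 lower, against 5.98% and 4.09% of all genes. Of the higher ones, the largest differences were those of GDF15 (log2FC 1.20, edgeR adjusted p = 0.0396), SLC7A11 (0.64, 2.84e-04) and VEGFA (0.54, 0.00243). Here too GDF15 passed the filter only through NRF2 cells w/o Cyss. The lower ones were DDIT4 (log2FC -0.73, edgeR adjusted p = 1.11e-05) and INHBE, an inhibin beta subunit (-0.49, 3.28e-04). With Cyss, 1 of 31 was higher, SLC7A11 (log2FC 0.64, edgeR adjusted p = 1.45e-05), against 1.36% of all genes. The interaction was negative for 10 of the 32 (6.13% of all genes) and positive for 2 (8.97% of all genes), with DDIT4 (-0.72), INHBE (-0.53) and PCK2, the mitochondrial phosphoenolpyruvate carboxykinase (-0.31), the most negative, and VEGFA (0.48) and SLC7A1, the cationic amino acid transporter (0.39), positive. The median interaction of the list was -0.09, against -0.01 over all genes.

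Upstream of ATF4 stand the eIF2 kinases, the eIF2 and eIF2B subunits and their regulators. Of 17 such genes, 1 was upregulated in GFP cells (EIF2S2, the beta subunit of eIF2, log2FC 0.55, edgeR adjusted p = 1.39e-06) and 2 in NRF2 cells, EIF2S2 (0.40, 1.19e-04) and PPP1R15B (0.60, 1.59e-06), the constitutive counterpart of PPP1R15A, against 1.57% and 6.81% of all genes. PPP1R15B also had a positive interaction of 0.29 (edgeR, adjusted p = 0.0243), as PPP1R15A did. The 4 kinase transcripts EIF2AK1 to EIF2AK4 had log2FC values from -0.21 to 0.14 over the 4 comparisons, inside the fold threshold. Kinase activity and eIF2 phosphorylation are not measured by these data.

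Of 5 pro-death or oxidative genes attributed to DDIT3, 1 was called in GFP cells and 4 in NRF2 cells, 3 of them upward. Over all genes the upregulated share also went from 1.57% to 6.81%, and the downregulated share from 0.533% to 5.14%. PMAIP1 (NOXA) rose in GFP cells (log2FC 0.89, edgeR adjusted p = 2.78e-04) and further in NRF2 cells (1.54, 2.99e-09), with an interaction of 0.65 (edgeR, adjusted p = 0.0105). TNFRSF10B, the death receptor DR5, was called in NRF2 cells (0.68, 1.15e-06) and had a log2FC of 0.14 in GFP cells, with an interaction of 0.54 (edgeR, adjusted p = 0.00193). BBC3 (PUMA) was called in NRF2 cells (0.58) at a mean of 51.3 normalized counts with Cyss and 76.6 w/o Cyss, BCL2L11 (BIM) was lower there (-0.33, 0.0522), and ERO1L, an ER oxidase, was called in neither kind of cell (-0.06 and 0.12).

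ER chaperones and ER-associated degradation genes, which respond to the ATF6 and IRE1 arms of the unfolded protein response, made up another list. Of 19, 2 were upregulated in GFP cells, HERPUD1 (log2FC 0.72, edgeR adjusted p = 1.71e-07) and XBP1 (0.52, 9.12e-07), and 3 in NRF2 cells, ERN1 (1.04, 2.98e-08), HERPUD1 (0.62, 2.00e-07) and XBP1 (0.52, 2.09e-06), against 1.57% and 6.81% of all genes. HERPUD1 is also induced by ATF4, and XBP1 and ERN1 encode the factor and the sensor of the IRE1 arm. ERN1 had an interaction of 0.82 (edgeR, adjusted p = 0.00111). The list's medians were 0.05 and 0.08, against 0.00 and -0.01 over all genes.

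Other members of the ATF, CREB, C/EBP and tribbles families were examined too. Of 14 tested, none was called in GFP cells by edgeR or DESeq2, and 5 were upregulated and 1 downregulated in NRF2 cells. In GFP cells, 4 of the 14 had an unadjusted p under 0.05 (edgeR), against 3160 of all 17452 genes. Over all genes the upregulated share also went from 1.57% in GFP to 6.81% in NRF2 cells, and the downregulated share from 0.533% to 5.14%. TRIB1, a relative of TRIB3, was raised most (log2FC 0.92, edgeR adjusted p = 9.59e-07; interaction 0.62, adjusted p = 0.00207), followed by CREB5 (0.44, 0.0119) and CREB3L2 (0.40, 5.47e-05), a close relative of CREB3L4. CEBPD was lower (-0.57, 0.00236; interaction -0.58, adjusted p = 0.0253). CREB3L2 had an interaction of 0.38 (edgeR, adjusted p = 0.00193), opposite in sign to that of CREB3L4.

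Likeness of pattern was described by the root mean square (RMS) difference of centred log2 normalized counts over the 12 libraries, against 13528 other genes whose mean was 50 normalized counts or more. The genes nearest to ATF4 were CARS (RMS difference 0.0655), GARS (0.0765) and PHGDH (0.0812). GARS and CARS were also nearest to CEBPG (0.0573 and 0.0630), with CBS next (0.0679), and CBS and CARS to TRIB3 (0.0777 and 0.0879), followed by CEBPG itself (0.0932). CARS and GARS encode tRNA synthetases for cysteine and glycine, PHGDH the entry enzyme of serine synthesis and CBS the first enzyme of transsulfuration. MTHFD2 (0.157), PSAT1P4 (0.175) and RP11-390P2.4 (0.175) were nearest to ATF3, PSAT1P3 (0.0724), INHBE (0.102) and PSAT1 (0.104) to NUPR1, and EIF2S2 (0.0985), EIF2S2P4 (0.104) and PHGDH (0.108) to DDIT3. PSAT1P3, PSAT1P4 and EIF2S2P4 are pseudogenes that may take reads of their parent genes.

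CEBPB and PPP1R15A, whose response was larger in NRF2 cells, had other near genes. MYC (RMS difference 0.0756) was second to CDC42EP2 (0.0727) and before RND3 (0.0759) for CEBPB, and first for PPP1R15A (0.0760), before TRIB1 (0.0799) and METRNL (0.0810). CEBPB and PPP1R15A were each other's nearest member at 0.0892, and NUPR1 and ATF4 were so at 0.104. CREB3L4 was like none of the 10: its nearest genes were LYSMD4 (0.125), GLI1 (0.148) and HINT2 (0.148), and its nearest member, DDIT3, was at 0.242, at rank 1143. These distances share the 12 libraries and their depth and are given without a test.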

How the data were processed

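RNA-seq libraries (12, in 4 groups of 3) were single-end TruSeq RNA v2 libraries. The authors mapped reads to hg19 with TopHat 2.1.0 and counted them on exons with HTSeq 0.11.2 (intersection-nonempty, unstranded) and deposited raw counts per gene symbol; the annotation version was not given in the sources used here. Per library, 15.9 to 17.1% of reads were assigned to no gene and left out. Genes named as rRNA (523) were removed. For each comparison, genes averaging 10 or more normalized counts in 1 of its groups were tested, TMM factors recomputed, and edgeR 4.0.16 (R 4.3.3) quasi-likelihood tests run with Benjamini-Hochberg adjustment over all genes; calls needed an adjusted p under 0.1 together with an absolute log2FC over 0.32, and an interaction at an adjusted p under 0.1. SEs were derived from the F statistics. Levels are TMM-normalized counts over all 12 libraries. An exact permutation test of 3 against 3 libraries cannot go below p = 0.1. Alternatives were DESeq2 1.42.0, 2 other scalings, 2 other filters, other thresholds, all 12 libraries in a fit, rRNA genes kept, a replicate block and leaving out each library.

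The genes, the lists and the tests were chosen with earlier results of these data known. The 10 genes are named in every comparison; from each list, up to 3 called genes per direction and comparison with the largest change, and lists of 5 or fewer in full, are named, as are 3 genes nearest in pattern. The procedures were run on simulated counts with a common dispersion and with changes larger than any interaction reported for the 10 genes. Those runs do not test calls near the fold threshold or genes with a wider spread.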

Additional observations from a re-analysis of the deposited data

Results flagged for a closer look

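A response to Cyss deprivation that differed between NRF2 and GFP cells (interaction, edgeR's quasi-likelihood test, adjusted p under 0.1) singled out 5 of the 10 genes: CREB3L4 at -0.80, DDIT3 at -0.35, NUPR1 at -0.32, CEBPB at 0.39 and PPP1R15A at 0.44, against 8.97% of all genes with a positive and 6.13% with a negative interaction. The 10 genes were chosen with earlier results of these data known. With 1 library removed at a time, DDIT3 lost its call in 5 of 12 fits and NUPR1 in 2.

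By the same test, ATF4 targets differed with DDIT4 at -0.72, INHBE at -0.53, PCK2 at -0.31, CHAC1 at -0.29, JDP2 at -0.28, SLC3A2 at -0.28, ASNS at -0.20, PSAT1 at -0.20, PHGDH at -0.19, AARS at -0.15, SLC7A1 at 0.39 and VEGFA at 0.48. Among DDIT3 targets, BCL2L11 was at -0.44, TNFRSF10B at 0.54 and PMAIP1 at 0.65. In the eIF2 and ER lists, PPP1R15B was at 0.29, DNAJC3 at 0.30, EDEM1 at 0.31 and ERN1 at 0.82. Among the family relatives, CEBPD was at -0.58, ATF2 at 0.33, TRIB2 at 0.34, CREB3L2 at 0.38, CREB5 at 0.47, ATF1 at 0.56 and TRIB1 at 0.62.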

How the results depend on the processing

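Of the 840 member values recomputed, 817 kept their call or their lack of one, 12 lost and 11 gained a call, and none of those called reversed. Some values near 0 that were not called changed sign. DDIT3 in NRF2 against GFP cells with Cyss ran from -0.06 to 0.07 with 1 library left out. With no fold threshold, ATF5 was called downregulated in GFP and in NRF2 cells, so that the members downregulated became 1 in each, by construction; DDIT3 was then called in NRF2 cells and ATF4 lower in NRF2 than in GFP cells w/o Cyss. With scaling by library size only, TRIB3 also had a called interaction. Leaving out each library in turn, the members downregulated in NRF2 cells were 0 to 1, those lower in NRF2 than in GFP cells w/o Cyss 1 to 3, and those with a negative interaction 1 to 5.

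Whether the replicate numbers pair the libraries was not settled. Correlations of deviations were low, with 1 of 12 same-numbered pairs over 0.1 (range -0.02 to 0.14). Yet 8 of 12 libraries correlated best with their own number. With the replicate block no call of the 10 genes changed (9 members upregulated in GFP and 7 in NRF2 cells); the all-gene interactions were 1866 positive and 1307 negative.

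Over all genes, leaving out each library gave 55 to 133 downregulated genes in GFP cells, 142 to 254 higher and 15 to 56 lower genes in NRF2 than in GFP cells with Cyss, 425 to 840 lower w/o Cyss, and 913 to 2119 positive and 482 to 1562 negative interactions; the lowest interaction counts came without GFP w/o Cyss replicate 2 and the highest without NRF2 w/o Cyss replicate 3. No filter on low counts gave 185 downregulated in GFP cells and 66 lower in NRF2 cells with Cyss. DESeq2's Wald test gave 91 higher and 14 lower with Cyss and 422 lower w/o Cyss. An adjusted p under 0.05 gave 17 lower with Cyss and 528 negative interactions, and a fit of all 12 libraries 21 lower with Cyss. Scaling by library size only gave 1397 downregulated in NRF2 cells and 1981 negative interactions. With no fold threshold the upregulated and downregulated genes numbered 543 and 490 (GFP cells) or 2633 and 2379 (NRF2 cells), and the higher and lower genes 724 and 398 with Cyss and 2425 and 2551 w/o Cyss. The other counts stayed within 1.5 times the reported ones. Where the construction does not show it, the cause was not tested. ATF3 and CREB3L4 had the lowest counts of the 10 genes, 72.2 to 245 normalized counts per library.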
